A study of Rattus norvegicus with 20 samples.

Results

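Gene expression in whole rat kidneys was examined for 8 genes of protein reabsorption in the proximal tubule: Lrp2, Cubn, Amn, Dab2, Lrpap1, Clcn5, Fcgrt and Gc. They were taken by gene symbol and matched between the deposited tables by Ensembl identifier, and are 8 of 32907 genes listed in either table. Gc was selected on its lower FPKM with cyclosporine A, so that comparison had a part in the choice. The values of the 8 genes there are a description: their calls in the fit over all genes are counted, with no p, and nothing is read from them. Adult wild-type male Wistar rats, 10 to 12 weeks old, received drug or vehicle for 28 days from osmotic minipumps placed under the skin, and the RNA of entire kidneys was sequenced. Both drugs are calcineurin inhibitors, used as immunosuppressants. Cyclosporine A (n = 4, target plasma trough printed by the submitters as 3 mg/ml) was compared with saline (n = 4), and tacrolimus (n = 6, trough aimed at 3.5 ng/ml) with its vehicle, a mixture of DMSO (25%) and polyethylene glycol (75%), called DMSO/PEG here (n = 6). Each drug has a vehicle and a table of its own, so drug, vehicle and table cannot be told apart when the comparisons are set side by side. In RNA of a whole kidney, fewer cells of a type and less RNA per cell cannot be told apart.

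Plasma proteins small enough to cross the glomerular filter are taken back by cells of the proximal tubule. Megalin (Lrp2) and cubilin (Cubn), large receptors of the brush border, bind filtered proteins and carry them into clathrin-coated pits. Cubilin needs amnionless (Amn) to reach the membrane, the adaptor Dab2 binds the tail of megalin, and the chaperone RAP (Lrpap1) escorts megalin through the secretory pathway. The chloride-proton exchanger ClC-5 (Clcn5) serves the acidification of endosomes and is the gene of Dent disease, while the neonatal Fc receptor (Fcgrt) returns albumin and IgG from endosomes. Gc is the vitamin D binding protein of plasma, a relative of albumin made mainly in the liver. It is filtered with its vitamin D cargo and reabsorbed through megalin, which supplies the kidney with the precursor of active vitamin D.

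The DNA before the start sites is shown for the 4 of the 8 genes whose cyclosporine A libraries all lay below the saline libraries once FPKM was rescaled between libraries (Gc, Lrp2, Cubn, Lrpap1, against 6.03% of all genes; on deposited FPKM all 8 did, against 68%) and for Dab2, which was higher relative to Lrp2 in every cyclosporine A library. On rescaled FPKM itself the groups of Dab2 overlapped, and the share of all genes that were higher relative to Lrp2 was not counted. Each line gives the 250 bases before the start site from RefSeq on the build GRCr8, 5′ to 3′ on the strand of the gene. Capitals mark GTTAAT, the core of the motif of the liver and kidney factor HNF1, in Gc, and the GC box GGGCGG in Lrp2 and Lrpap1.
Gc, chr14:18916005-18916254, plus strand: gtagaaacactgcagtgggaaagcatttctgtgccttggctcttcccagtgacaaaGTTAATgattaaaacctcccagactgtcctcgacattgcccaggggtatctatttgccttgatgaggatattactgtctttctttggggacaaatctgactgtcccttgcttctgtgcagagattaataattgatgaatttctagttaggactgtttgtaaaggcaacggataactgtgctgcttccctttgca
Lrp2, chr3:74754536-74754785, minus strand: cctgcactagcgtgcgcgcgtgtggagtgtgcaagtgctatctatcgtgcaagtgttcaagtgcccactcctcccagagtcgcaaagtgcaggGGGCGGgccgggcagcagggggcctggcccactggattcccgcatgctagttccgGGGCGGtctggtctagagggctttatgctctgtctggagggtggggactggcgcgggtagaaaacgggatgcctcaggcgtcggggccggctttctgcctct
Cubn, chr17:81501695-81501944, minus strand: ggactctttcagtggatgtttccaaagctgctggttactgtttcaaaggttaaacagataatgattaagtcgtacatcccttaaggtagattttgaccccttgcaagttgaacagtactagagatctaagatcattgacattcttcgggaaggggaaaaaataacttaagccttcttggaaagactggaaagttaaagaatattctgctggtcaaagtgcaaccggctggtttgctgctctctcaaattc
Lrpap1, chr14:79875752-79876001, plus strand: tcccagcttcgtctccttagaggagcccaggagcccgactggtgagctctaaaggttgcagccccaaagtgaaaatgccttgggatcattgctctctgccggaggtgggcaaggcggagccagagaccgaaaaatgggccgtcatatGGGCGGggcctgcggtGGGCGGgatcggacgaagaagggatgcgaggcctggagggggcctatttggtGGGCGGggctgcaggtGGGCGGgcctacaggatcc
Dab2, chr2:57272050-57272299, plus strand: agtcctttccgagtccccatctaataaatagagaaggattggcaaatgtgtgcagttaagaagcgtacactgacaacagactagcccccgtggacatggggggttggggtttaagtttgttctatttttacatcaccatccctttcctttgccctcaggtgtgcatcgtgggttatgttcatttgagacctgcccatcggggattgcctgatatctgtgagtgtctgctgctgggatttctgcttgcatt
The search covered both strands, and all 8 genes had a window (9 windows, since Clcn5 had a pair). GTTAAT or its reverse complement lay in the window of 1 gene, Gc, 194 bases before the start, and in 6.45% of 33469 windows of the same length. GGGCGG or its reverse complement lay in 4 of the 8 genes and in 30.5% of all windows. Lrp2 held it at 157 and 102 bases before the start, Lrpap1 at 103, 87, 35 and 19, Amn at 105 and 50 and Clcn5 at 159. The TATA box TATAAA lay in 0 of the 8 genes and in 12.9% of all windows. The motifs do not overlap one another in these windows. A match is a match of letters, and a window without one says only that these letters are not in it.

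The libraries of the cyclosporine A table differed in depth outside the mitochondrial genome. Each library of the cyclosporine A table held 30465025 to 34303038 fragments within genes, and each library of the tacrolimus table held 31670202 to 39358485. Mitochondrial genes took 49.7% to 68.6% of them with saline and 80.2% to 90.8% with cyclosporine A, which left 10280438 to 17250887 and 2904732 to 6547026 fragments for nuclear genes. The shares were 10.5% to 13.7% with DMSO/PEG and 10.8% to 15.9% with tacrolimus. Levels are given as FPKM, that is, fragments divided by gene length and by library depth. In the cyclosporine A table the depth that was divided by includes the mitochondrial fragments. These values were therefore rescaled so that the median gene ratio between libraries is equal (rescaled FPKM). Deposited values are given beside them for some genes and lists only. Where none is given, the deposited value can still differ from the rescaled one. The tacrolimus values were deposited on such a scale.

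With cyclosporine A, Gc was lower in every library and megalin, cubilin and RAP were lower by smaller amounts, while Dab2 was not lower on rescaled FPKM. The cyclosporine A means were 30.04% of the saline mean for Gc, 60.5% for Cubn, 66.7% for Lrp2 and 69.2% for Lrpap1, and 112% for Dab2. For Clcn5, Fcgrt and Amn, whose groups overlapped, they were 62.8%, 77.5% and 78.0%. Of the 8 genes, 7 had a log2 fold change below 0, with a median of −0.47 (−0.30 without cyclosporine A replicate 4), where 49.8% of the 13380 genes tested lay below 0. All 4 cyclosporine A libraries lay below all 4 saline libraries for 4 of the 8 genes (Lrp2, Cubn, Lrpap1 and Gc), against 6.03% of all genes tested. At an adjusted p under 0.05 the fit over all genes (limma) called 1 of the 8, Gc, against 0.62% of all genes tested. Because the comparison chose Gc, nothing is read from these counts.

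**Figure D1:**
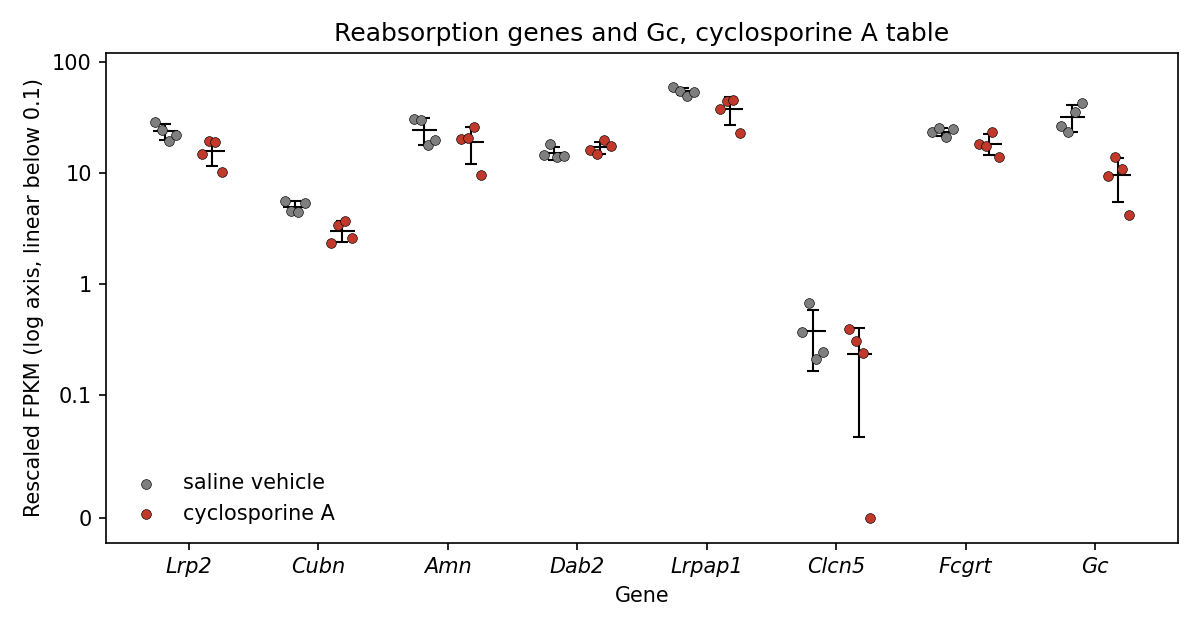
Rescaled FPKM (log axis, linear below 0.1) of the 8 genes in each saline (grey, n = 4) and cyclosporine A (red, n = 4) library; bars are the mean and SD. The groups do not overlap for Lrp2, Cubn, Lrpap1 and Gc, and 1 cyclosporine A library has no fragment of Clcn5.

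Lrp2 (ENSRNOG00000056184, chr3:55665145-55822551, minus strand; positions are as deposited, on rn6 per the submitters' processing notes) encodes megalin. Its rescaled FPKM was 28.4, 24.2, 19.5 and 22.01 in saline replicates 1 to 4 and 14.7, 19.2, 18.8 and 10.1 in cyclosporine A replicates 1 to 4. The lowest saline library (19.5) and the highest cyclosporine A library (19.2) lay close together, so the groups were apart by little. The mean was 23.5 ± 3.80 (SD, n = 4) with saline and 15.7 ± 4.23 (SD, n = 4) with cyclosporine A, and the log2 fold change was −0.58 ± 0.20 (SE).

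Cubn (ENSRNOG00000029047, chr17:80584878-80807243, minus strand) encodes cubilin, the receptor of albumin and of the intrinsic factor and vitamin B12 complex. Saline libraries had 5.58, 4.48, 4.46 and 5.28 rescaled FPKM and cyclosporine A libraries 2.35, 3.39, 3.69 and 2.57. The gap between the groups was wider than for Lrp2 beside the spread within them. The mean was 4.95 ± 0.57 (SD, n = 4) with saline and 3.00 ± 0.641 (SD, n = 4) with cyclosporine A, and the log2 fold change was −0.58 ± 0.15 (SE). Its partner Amn (ENSRNOG00000009050, chr6:135724455-135731896, plus strand) had 30.5, 29.7, 17.7 and 19.5 with saline and 20.0, 20.5, 26.0 and 9.46 with cyclosporine A. The groups of Amn overlapped widely. Its log2 fold change was −0.38 with a standard error of 0.29, and −0.10 without cyclosporine A replicate 4.

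Lrpap1 (ENSRNOG00000009313, chr14:80911270-80924831, plus strand), which encodes RAP, had 59.6, 54.3, 49.2 and 53.3 rescaled FPKM with saline and 37.7, 44.0, 45.3 and 22.7 with cyclosporine A. It was the most abundant of the 8 genes in both groups. Its values followed those of its client megalin across these 8 libraries (Pearson r of the log2 values 0.98, a description over libraries that share treatment and scaling). Over the 12 libraries of the tacrolimus table the same r was −0.28. The log2 fold change was −0.56 with a standard error of 0.20, and −0.35 without cyclosporine A replicate 4. The clathrin adaptor gene Dab2 (ENSRNOG00000028930, chr2:55747318-55768270, plus strand) had 14.4, 18.1, 13.8 and 14.02 with saline and 15.9, 14.8, 19.6 and 17.3 with cyclosporine A. These groups overlapped, with a log2 fold change of 0.16 and a standard error of 0.12, and the value was 0.24 without saline replicate 2 and 0.09 without cyclosporine A replicate 3. On deposited FPKM the direction of Dab2 was the opposite, −1.09 with a standard error of 0.28.

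Among the endosomal genes, Fcgrt (ENSRNOG00000020583, chr1:101086877-101095594, minus strand) had 23.1, 25.4, 20.9 and 24.8 rescaled FPKM with saline and 18.2, 17.6, 23.3 and 13.8 with cyclosporine A. Replicate 3 of cyclosporine A lay within the saline range and the other 3 lay below it. The log2 fold change was −0.37 with a standard error of 0.15. Clcn5 (ENSRNOG00000002862, chrX:16050780-16196789, plus strand) was scarce in this table, with 27 to 74 fragments per saline library and 0 to 22 per cyclosporine A library. It had 0.363, 0.669, 0.209 and 0.243 rescaled FPKM with saline and 0.393, 0.302, 0.238 and 0 with cyclosporine A. The groups overlapped, and the count of 0 in cyclosporine A replicate 4 allows up to 0.0828 rescaled FPKM (3 fragments, for counting error only). Its log2 fold change of −0.15 (standard error 0.14) is on the log2(FPKM + 1) scale, which understates changes of low genes, and was −0.62 with a pseudocount of 0.1. Without saline replicate 2 or without cyclosporine A replicate 4 it was −0.05.

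Gc (ENSRNOG00000003119, chr14:20266891-20302581, plus strand) had 26.3, 23.4, 35.3 and 42.5 rescaled FPKM in the saline libraries and 9.29, 13.95, 10.9 and 4.14 in the cyclosporine A libraries. Every cyclosporine A value was well under the lowest saline value. The mean was 31.9 ± 8.71 (SD, n = 4) with saline and 9.57 ± 4.10 (SD, n = 4) with cyclosporine A, and the log2 fold change was −1.70 ± 0.31 (SE). These levels rest on 1737 to 3995 fragments per saline library and 101 to 684 per cyclosporine A library. Leaving out any 1 library gave log2 fold changes from −1.90 to −1.39. Gc was no longer called without saline replicate 1, 2, 3 or 4 or without cyclosporine A replicate 1 or 3, nor with a pseudocount of 0.1 or without the filter on low values.

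The scaling set how large these differences were. On deposited FPKM all 8 genes were lower with cyclosporine A, against 97.5% of all genes tested, and all 8 were called, against 81.4%, and all 8 were without overlap between the groups, against 68% of all genes with drug lower. Over all genes tested the median log2 fold change there was −0.90 and that of the 8 genes −1.63. The deposited log2 fold changes were −1.83 for Lrp2, −1.61 for Cubn, −1.64 for Amn, −1.86 for Lrpap1, −0.43 for Clcn5 and −1.63 for Fcgrt. Deposited FPKM of Gc averaged 52.4 ± 17.8 (SD, n = 4) with saline and 6.81 ± 4.09 (SD, n = 4) with cyclosporine A, and the log2 fold change was −2.90 ± 0.39 (SE). Gc was the lowest of the 8 under both scalings. As a share of the saline mean, deposited FPKM with cyclosporine A was 13.0% for Gc, 24.7% to 33.2% for the 6 genes between and 45.6% for Dab2, the highest of the 8.

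**Figure D2:**
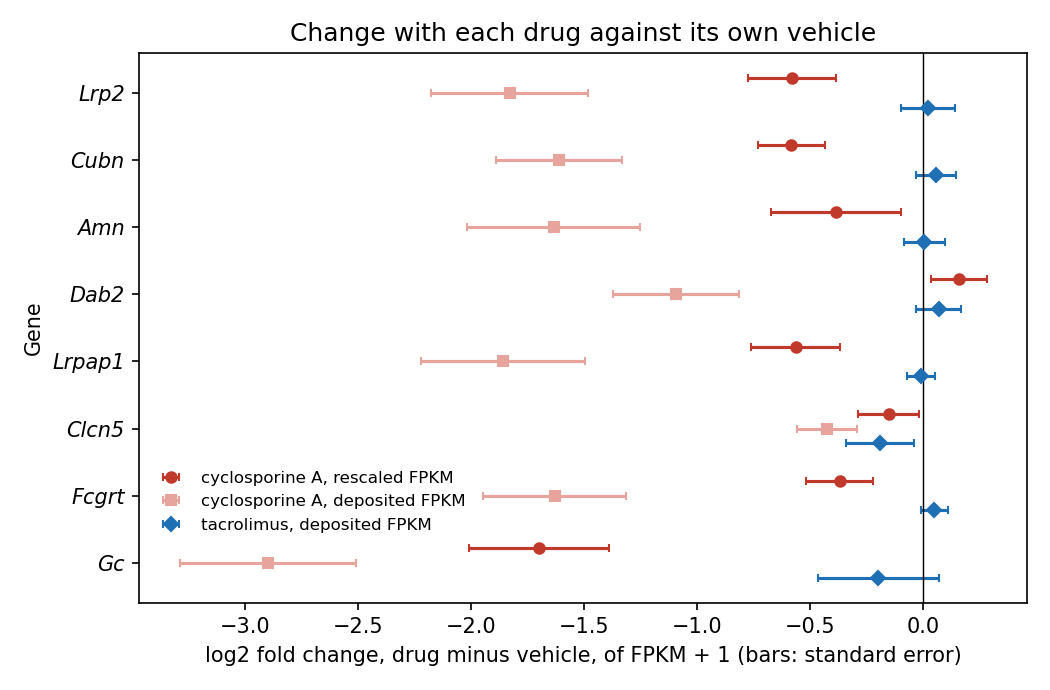
Log2 fold change of each gene, drug minus its own vehicle, on the log2(FPKM + 1) scale, with standard errors: cyclosporine A on rescaled (red circles) and deposited (pink squares) FPKM, and tacrolimus (blue diamonds). Gc stands at −1.70 and −2.90 with cyclosporine A and −0.20 with tacrolimus, and the tacrolimus values of the other 7 genes lie between −0.19 and 0.07.

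Dividing each gene by Lrp2 in the same library removes the scaling. The ratio of Gc to Lrp2, both as FPKM, was 0.926, 0.964, 1.81 and 1.93 in the saline libraries and 0.632, 0.728, 0.58 and 0.409 in the cyclosporine A libraries. The groups did not overlap, and since this comparison chose Gc, its ratio there is a description. The ratio of Dab2 to Lrp2 was 0.506, 0.745, 0.707 and 0.637 with saline and 1.09, 0.773, 1.04 and 1.71 with cyclosporine A. Here the cyclosporine A libraries were all higher, the closest pair being 0.745 and 0.773. Lrp2 was at 66.7% of its saline mean on rescaled FPKM, so a gene without a difference is higher relative to it. The share of all genes without overlap in their ratio to Lrp2 was not counted, so nothing is read from the ratio of Dab2. The ratios of Cubn, Amn, Lrpap1, Fcgrt and Clcn5 to Lrp2 overlapped between the groups. That of Lrpap1 had a mean of 2.32 ± 0.189 (SD, n = 4) with saline and 2.38 ± 0.147 (SD, n = 4) with cyclosporine A, a difference smaller than the spread within either group.

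**Figure D3:**
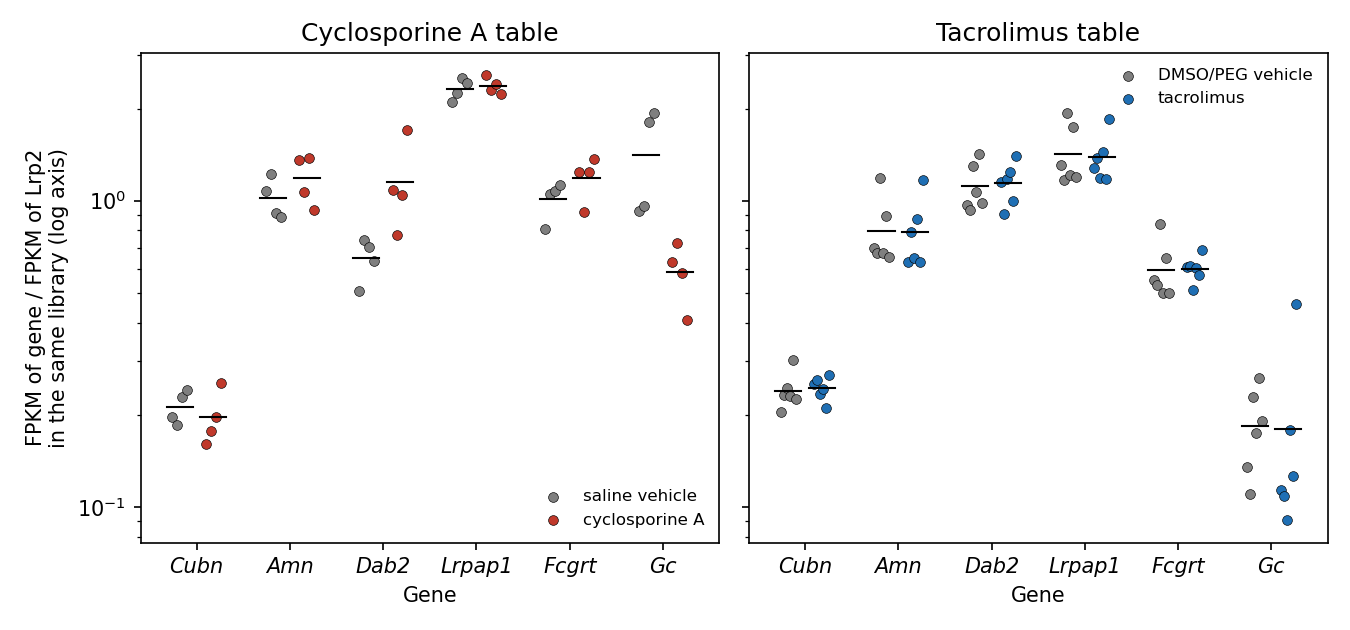
FPKM of 6 genes divided by FPKM of Lrp2 in the same library (log axis), with the mean of each group as a line; left, saline and cyclosporine A (n = 4 each), right, DMSO/PEG and tacrolimus (n = 6 each). On the left Gc lies at 0.926 to 1.93 with saline and 0.409 to 0.728 with cyclosporine A, and on the right all groups overlap; Clcn5, at a ratio of 0.0632 or less, is not drawn.

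On rescaled FPKM, markers of the late proximal tubule had a lower summed level with cyclosporine A, which rested on 2 abundant genes. On that scale 0 of these markers passed the test. The late segment of the proximal tubule was represented by Slc7a13, Slc5a1, Slc22a7, Slc22a13 and Acy3, whose summed rescaled FPKM was 1189 to 1556 with saline and 590 to 1154 with cyclosporine A. Slc7a13 was at 1063 ± 127 (SD, n = 4) with saline and 664 ± 199 (SD, n = 4) with cyclosporine A, and Acy3 at 293 ± 29.3 and 197 ± 35.9, both without overlap, while the groups of the other 3 genes overlapped. All 5 had log2 fold changes below 0, with a median of −0.58, and 0 of 5 were called (limma, 4 at an unadjusted p under 0.05, against 16.2% of all genes). On deposited FPKM 5 of 5 were called lower, against 81.2% of all genes. Their median there was −1.91, and that of all genes tested was −0.90. The 10 markers of the early segments, among them Slc5a2 and Slc34a1, summed to 587 to 815 with saline and 371 to 744 with cyclosporine A, with a median log2 fold change of 0.13. Of these 10 genes, 1 was called higher, Slc5a2 (adjusted p = 0.0375, limma), against 0.336% of all genes, 0 were called lower, and 5 had an unadjusted p under 0.05. Among markers of other cell types, 2 of 4 of the thick ascending limb and 1 of 3 of the distal convoluted tubule were called lower, against 0.284% of all genes. On deposited FPKM 4 of 4 and 2 of 3 were called lower, against 81.2%. Umod, the thick ascending limb gene of uromodulin, was at 323 ± 99.8 rescaled FPKM (SD, n = 4) with saline and 125 ± 37.7 (SD, n = 4) with cyclosporine A (−1.36, limma adjusted p = 0.0479). The salt transporter gene Slc12a1 had a log2 fold change of −0.95 (limma adjusted p = 0.0498) and the calcium-binding Calb1 of the distal convoluted tubule one of −1.85 (limma adjusted p = 0.0243). On rescaled FPKM the other markers of these segments did not pass the test. Cldn16 was at 0.21 and Ptger3 at −0.38 in the thick ascending limb. Slc12a3 was at 0.27 and Trpm6 at −0.06 in the distal convoluted tubule. Leaving out 1 library ended the call of Umod in each of the 8 cases, that of Slc12a1 and of Slc5a2 in all but the one without cyclosporine A replicate 4, and that of Calb1 without saline replicate 2, 3 or 4 or cyclosporine A replicate 1 or 3. All 4 calls ended without the filter on low values, and those of Umod, Slc12a1 and Slc5a2 with a pseudocount of 0.1. Of 4 endothelial markers tested, Plvap was at −1.96 without overlap (limma adjusted p = 0.0656) and Kdr, Cdh5 and Emcn at 0.24, −0.15 and −0.10, with a median of −0.13. By limma on rescaled FPKM, 0 markers of principal cells, intercalated cells, podocytes, endothelium, leukocytes and hepatocytes were called. Of 4, 4, 5, 4, 3 and 4 tested, 1, 0, 2, 1, 0 and 2 had an unadjusted p under 0.05, against 16.2% of all genes. The podocyte pair was higher (Wt1 0.47, Synpo 0.73), and the hepatocyte pair went in opposite directions (Fgg 0.46, F2 −0.71). On deposited FPKM 4, 3, 1, 4, 3 and 3 of them were called lower, against 81.2% of all genes. The mitochondrial share, at 80.2% to 90.8% with cyclosporine A, also moved with these groups. The part of these cell type markers and of the mitochondrial share in the values of the 8 genes was not tested.

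Early-segment markers differed widely in level in the cyclosporine A table. With saline the water channel Aqp1 was at 369 rescaled FPKM, the phosphate transporter Slc34a1 at 128, the scaffold Pdzk1 at 93.1 and the creatine synthesis enzyme Gatm at 50.1. With cyclosporine A their means were 232, 134, 72.03 and 94.8; Aqp1 and Pdzk1 lay lower and Gatm higher without overlap, and 0 of these 4 were called. The sodium-glucose transporter Slc5a2 was at 0.278 ± 0.168 rescaled FPKM (SD, n = 4) with saline and 1.45 ± 0.424 (SD, n = 4) with cyclosporine A. The summed early-segment markers were 0.471 to 0.575 of the summed late-segment markers in saline libraries and 0.598 to 0.871 in cyclosporine A libraries, against 2.87 to 4.00 with DMSO/PEG and 2.73 to 3.45 with tacrolimus. The ratio of early to late markers was thus lower in both groups of the cyclosporine A table than in both groups of the tacrolimus table, although the labels give entire kidneys for all. The early-segment sum rested on different genes in the tables. With saline Aqp1 (369) was the largest part of a mean sum of 688. With DMSO/PEG Slc34a1 (1537) and Gatm (1443) were the largest parts of a mean sum of 5505. The ratio of Slc5a2 to the late marker Slc7a13 was 0.000118 to 0.000407 with saline and 0.00173 to 0.00282 with cyclosporine A, against 0.110 to 0.139 with DMSO/PEG and 0.109 to 0.149 with tacrolimus. The summed podocyte markers were 0.4004% to 0.874% of the summed early-segment markers with saline, 0.650% to 3.19% with cyclosporine A, 1.43% to 2.05% with DMSO/PEG and 1.29% to 1.91% with tacrolimus. These differences between the tables were not tested.

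The liver is the main known source of Gc. The defining liver gene Alb was at 0.0241 ± 0.023 rescaled FPKM (SD, n = 4) with saline and at 0 in all 4 cyclosporine A libraries, and Ahsg was at 0 in all 8 libraries. In the tacrolimus table Alb was at 0.176 ± 0.121 FPKM (SD, n = 6) with DMSO/PEG and 0.122 ± 0.0998 (SD, n = 6) with tacrolimus. The 10 liver markers summed to 12.4 to 17.6 rescaled FPKM with saline and 5.60 to 19 with cyclosporine A. The sum was carried by Apoc3, F2 and Fga, with means of 5.67, 6.08 and 2.78 with saline. In the saline libraries Gc was at 23.4 to 42.5 rescaled FPKM. The source of the Gc RNA was not tested.

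With tacrolimus, differences in the 8 genes were smaller than the spread between libraries. Of the 8, 0 were called by limma, against 0.304% of 15479 genes tested, and 0 of the 8 had an unadjusted p under 0.05, against 8.59% of all genes. An alternative test, voom with sample quality weights, also called 0 of the 8, with 1 (Clcn5) at an unadjusted p under 0.05. All 8 overlapped between the groups, and their median log2 fold change was 0.01, with 3 of 8 below 0 against 50.2% of all genes. This comparison had no part in the choice of the genes. In the same libraries all 3 tested markers of the distal convoluted tubule were called lower with tacrolimus, with Calb1 at −3.81, Slc12a3 at −1.24 and Trpm6 at −0.85 (limma adjusted p = 1.73e-11, 0.000159 and 9.53e-05).

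Lrp2 had 134, 183 and 202 FPKM as the lowest, median and highest value with DMSO/PEG and 138, 172 and 217 with tacrolimus. The log2 fold change was 0.02 with a 95% interval from −0.24 to 0.28 (limma adjusted p = 0.985). For Cubn the lowest, median and highest values were 32.7, 42.1 and 45.3 with DMSO/PEG and 37.2, 41.5 and 50.7 with tacrolimus, and the log2 fold change was 0.06 (interval −0.13 to 0.25, limma adjusted p = 0.93). The vehicle and drug ranges of both receptors overlapped over most of their width. Amn ranged from 121 to 159 with DMSO/PEG and from 110.2 to 161 with tacrolimus, a log2 fold change of 0.01 (interval −0.19 to 0.21). Lrpap1 ranged from 209 to 258 and from 217 to 258, with −0.01 (interval −0.15 to 0.13). Dab2 ranged from 167 to 202 and from 154 to 255, with 0.07 (interval −0.15 to 0.28). For Amn, Lrpap1 and Dab2 the limma adjusted p was 0.994, 0.988 and 0.924, so the partners of the receptors did not pass the test either.

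**Figure D4:**
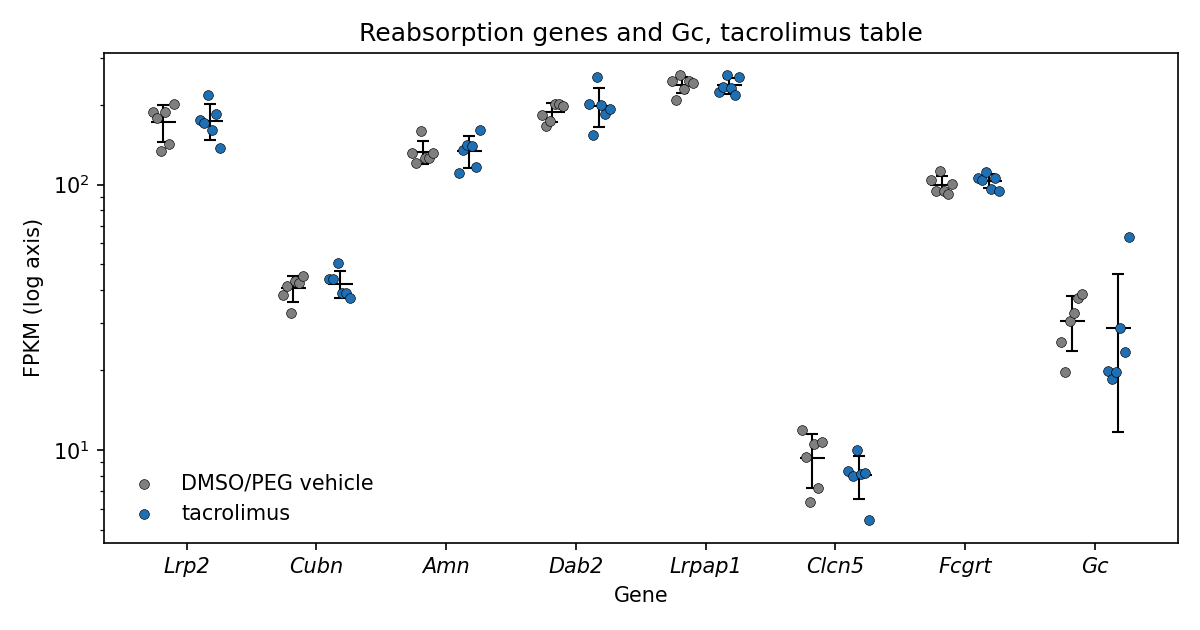
FPKM (log axis) of the 8 genes in each DMSO/PEG (grey, n = 6) and tacrolimus (blue, n = 6) library; bars are the mean and SD. The groups overlap for every gene, and 1 tacrolimus library stands at 63.2 FPKM of Gc while the other 5 lie between 18.4 and 28.7.

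Of the endosomal genes, Fcgrt ranged from 92.2 to 113 FPKM with DMSO/PEG and from 94.9 to 111 with tacrolimus, a log2 fold change of 0.05 (interval −0.08 to 0.18, limma adjusted p = 0.899). Clcn5, at 9.34 ± 2.15 FPKM (SD, n = 6) with DMSO/PEG and 8.002 ± 1.47 (SD, n = 6) with tacrolimus, had a log2 fold change of −0.19 (interval −0.52 to 0.14, limma adjusted p = 0.811). The value was −0.10 without tacrolimus replicate 6 and −0.12 without DMSO/PEG replicate 1. Unlike in the cyclosporine A table, Clcn5 was well covered here, by 533 to 1179 fragments per library. Its ratio to Lrp2 was 0.0476 to 0.0632 with DMSO/PEG and 0.0394 to 0.0504 with tacrolimus, which overlap.

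Gc had 19.7, 31.7 and 38.6 FPKM as the lowest, median and highest value with DMSO/PEG and 18.4, 21.6 and 63.2 with tacrolimus. Tacrolimus replicate 6 stood apart at 63.2, and the other 5 tacrolimus libraries lay between 18.4 and 28.7, within or just under the vehicle range. The mean was 30.7 ± 7.21 (SD, n = 6) with DMSO/PEG and 28.9 ± 17.2 (SD, n = 6) with tacrolimus, and the log2 fold change was −0.20 ± 0.27 (SE, interval −0.77 to 0.38, limma adjusted p = 0.912). Without tacrolimus replicate 6 the log2 fold change was −0.45, without tacrolimus replicate 2 it was −0.10, and Gc was not called either way. The difference between the drugs was not tested.

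Tacrolimus replicate 6 also had the highest mitochondrial share of its group, 15.9%, and the lowest Lrp2 (138 FPKM) and Clcn5 (5.42 FPKM). In the DMSO/PEG group the library with the highest share, replicate 6 at 13.7%, had the highest Gc, 38.6 FPKM. In the cyclosporine A table the order ran the other way between the groups, with Gc low where the share was high, and cyclosporine A replicate 4 had both the highest share (90.8%) and the lowest Gc (4.14). Whether the mitochondrial share had a part in the values of Gc was not tested.

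**Figure D5:**
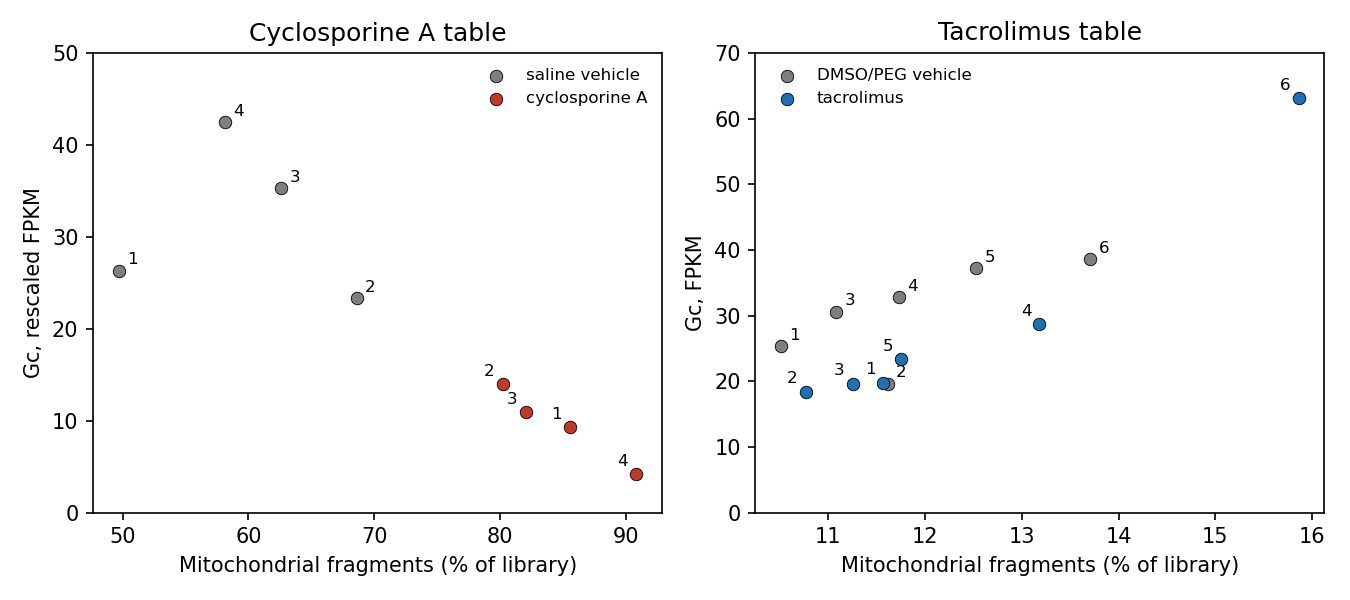
FPKM of Gc in each library against the share of its fragments from mitochondrial genes, numbered by replicate; left, cyclosporine A table on rescaled FPKM, right, tacrolimus table. On the left the 4 cyclosporine A libraries lie at 80.2% or more and 13.95 FPKM or less; on the right tacrolimus replicate 6 lies at 15.9% and 63.2 FPKM.

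Ordered by FPKM, which is per length, the 8 genes ranked Lrpap1, Gc, Amn, Lrp2, Fcgrt, Dab2, Cubn and Clcn5 in saline kidneys. Neighbouring ranges overlapped from Gc to Fcgrt, so those 4 are not separated. With cyclosporine A the order was Lrpap1, Amn, Fcgrt, Dab2, Lrp2, Gc, Cubn and Clcn5, and neighbours overlapped from Lrpap1 to Gc. In both groups of the tacrolimus table the order was Lrpap1, Dab2, Lrp2, Amn, Fcgrt, Cubn, Gc and Clcn5. With DMSO/PEG the overlapping neighbours were Dab2 with Lrp2, Lrp2 with Amn, and Cubn with Gc, and with tacrolimus all neighbours overlapped except Fcgrt with Cubn and Gc with Clcn5. The place of Gc among the 8 genes differed between the vehicle groups of the tables. Its own mean was 31.9 rescaled FPKM with saline and 30.7 FPKM with DMSO/PEG, while Lrp2 was at 23.5 and 172 and Dab2 at 15.1 and 187. The ratio of Gc to Lrp2 was 0.926 to 1.93 in saline kidneys and 0.110 to 0.263 in DMSO/PEG kidneys. These differences between separately normalized tables were not tested.

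The genes around these receptors were counted in 9 lists, 97 genes in all, of which 86 were tested with cyclosporine A and 90 with tacrolimus. With cyclosporine A on rescaled FPKM, 0 of these 86 were called higher and 0 lower by limma, against 0.336% and 0.284% of all genes, and 16 had an unadjusted p under 0.05, against 16.2%. Their median log2 fold change was −0.03, and voom called 2, Rbp4 and Ambp, against 2.11% of all genes. On deposited FPKM 79 of 86 were called lower, against 81.2% of all genes. With tacrolimus 0 of 90 were called (limma, 8 at an unadjusted p under 0.05, against 0.304% and 8.59% of all genes), with a median of 0.01, and voom called 1, the vitamin D receptor gene Vdr, against 0.788%. These shares were near the background.

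In the coat and apical endocytosis list (clathrin chains, the AP-2 adaptor, Myo6, Ocrl and others), 0 of 19 tested genes were called with cyclosporine A and 0 of 20 with tacrolimus, and the medians were −0.03 and 0.04. Its summed level was 335 to 359 rescaled FPKM with saline and 328 to 370 with cyclosporine A, so the ranges of the groups overlapped. The gene of this list with the largest difference was Eps15, a coated-pit scaffold, with cyclosporine A (0.29, limma adjusted p = 0.475; 0.14 without cyclosporine A replicate 4 and −0.72 on deposited FPKM) and the phosphatase gene Inpp5b with tacrolimus (0.18, limma adjusted p = 0.709). The AP-2 genes Ap2a1 and Ap2a2 were nearly as far in the other direction with cyclosporine A, at −0.29 and −0.28. Of the endosome sorting and recycling genes, 0 of 17 were called in either comparison, with medians of −0.03 and −0.02. Rab11b, a recycling GTPase, had the largest difference with cyclosporine A (−0.28, limma adjusted p = 0.201), and the early endosome tether Eea1 with tacrolimus (−0.24, limma adjusted p = 0.745; −0.11 without tacrolimus replicate 6). Of the vacuolar proton pump genes, 0 of 17 were called in either comparison, with medians of 0.00 and −0.02. Atp6ap1, an accessory subunit, was at 23.9 ± 8.27 (SD, n = 4) with saline and 15.4 ± 5.998 (SD, n = 4) with cyclosporine A as rescaled FPKM (−0.60, limma adjusted p = 0.31), and Atp6v0a4, a membrane subunit, had the largest difference with tacrolimus (0.16, limma adjusted p = 0.446). Over all genes 0.62% were called with cyclosporine A and 0.304% with tacrolimus, so counts of 0 in lists of this size are near the background. On deposited FPKM 18 of 19, 16 of 17 and 17 of 17 genes of these lists were called lower, against 81.2% of all genes.

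Of the listed relatives of megalin, Lrp1 and Vldlr among them, 0 of 8 were called in either comparison, with medians of −0.16 and −0.02. Lrp10 had the largest difference with cyclosporine A, at 14.6 ± 1.61 rescaled FPKM (SD, n = 4) with saline and 10.7 ± 2.19 (SD, n = 4) with the drug (−0.43, limma adjusted p = 0.198), with overlap. Lrp12 had the largest difference with tacrolimus (−0.12, limma adjusted p = 0.674). Of the proximal tubule regulators, 0 of 7 were called in either comparison. Maf had the largest difference with cyclosporine A (0.68, limma adjusted p = 0.171; −0.27 on deposited FPKM) and Ppara, the receptor that drives fatty acid oxidation, with tacrolimus (−0.29, limma adjusted p = 0.445).

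Among carriers of vitamin B12 and vitamin A, 0 of 5 were called with cyclosporine A and 0 of 6 with tacrolimus, with medians of −0.11 and 0.04. Rbp4, the plasma retinol carrier that megalin takes up, was at 55.1 ± 14.9 (SD, n = 4) with saline and 20.3 ± 9.85 rescaled FPKM (SD, n = 4) with cyclosporine A, without overlap (−1.47, limma adjusted p = 0.073; 0.0121 with voom). On deposited FPKM Rbp4 was called lower with cyclosporine A (−2.75, limma adjusted p = 6.985e-05). There 5 of 5 tested genes of this list were called lower, against 81.2% of all genes. With tacrolimus Rbp4 was at 54.4 ± 10.2 FPKM (SD, n = 6) in vehicle and 73.3 ± 19.1 (SD, n = 6) in drug libraries (0.40, limma adjusted p = 0.497), with overlap.

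Of the other filtered plasma protein genes, 0 of 6 were called in either comparison. Ambp, the gene of alpha-1-microglobulin, was at 1.83 ± 0.452 (SD, n = 4) with saline and 4.14 ± 1.12 rescaled FPKM (SD, n = 4) with cyclosporine A (0.85, limma adjusted p = 0.0745; 0.0404 with voom), but at −0.11 on deposited FPKM. Lcn2, the injury marker lipocalin 2, had the largest difference with tacrolimus (0.55, limma adjusted p = 0.849), with values from 0.29 (without DMSO/PEG replicate 3) to 0.90 (without tacrolimus replicate 2) when 1 library was left out. Afm, afamin, a relative of Gc in the albumin family, was at 28.3 ± 3.22 (SD, n = 4) with saline and 20.7 ± 5.86 rescaled FPKM (SD, n = 4) with cyclosporine A (−0.47, limma adjusted p = 0.277; −0.27 without cyclosporine A replicate 4), and at −0.17 with tacrolimus (limma adjusted p = 0.67).

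Of the vitamin D genes, 0 of 6 were called with cyclosporine A and 0 of 7 with tacrolimus, with medians of 0.11 and 0.05. Cyp24a1, the enzyme that degrades active vitamin D, was at 19.1 ± 10.4 FPKM (SD, n = 6) with DMSO/PEG and 48.2 ± 14.6 (SD, n = 6) with tacrolimus, and the log2 fold change was 1.502 ± 0.44 (SE, limma adjusted p = 0.247). The groups overlapped. With cyclosporine A it was at 2.51 ± 1.86 (SD, n = 4) and 1.29 ± 0.847 (SD, n = 4) as rescaled FPKM (−0.54, limma adjusted p = 0.555). That value was −0.36 without saline replicate 1, −0.26 without saline replicate 2 and −0.27 without cyclosporine A replicate 4.

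Genes whose log2 levels ran most like those of Gc and Lrp2 were ranked by Pearson r, as a description over libraries that share treatment and depth. Over the 8 libraries of the cyclosporine A table, among 4409 genes with a mean of at least 5 rescaled FPKM, Gc was most like Canx (0.98), Gstk1 (0.98), Slc21a4 (0.98) and Tmlhe (0.98). Lrp2 was most like Dnttip1, Bmp4, Clptm1 and Tkfc (each 0.99). Over the 12 libraries of the tacrolimus table, among 9002 genes, Gc was most like AY172581.2 (0.92), a gene of the mitochondrial chromosome, LOC691807 (0.92), Xrcc5 (0.89) and Alg14 (0.89). Lrp2 was most like Btaf1, Uhmk1, Dst and Glis3 (0.90 to 0.91). Among the 8 genes, where their mean was high enough to be ranked, Lrp2 ran closest to Lrpap1 in the cyclosporine A table (0.98). In the tacrolimus table it ran closest to Clcn5 (0.87) and Cubn (0.71), and its r with Lrpap1 was −0.28. The r of Gc with Lrp2 was 0.83 in the cyclosporine A table, where both were low in the same group, and −0.51 in the tacrolimus table.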

How the data were processed

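RNA of entire kidneys was sequenced from 4 saline, 4 cyclosporine A, 6 DMSO/PEG and 6 tacrolimus samples. The labels do not tie samples to named animals, so p-values measure the spread between these samples only. The deposited values are FPKM per gene, judged from the values themselves. HISAT2 and the build rn6 are named in the submitters' processing notes, and the counting program and strand setting are not given in the sources used here. Gene lengths are as the authors deposited them.

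FPKM values are whole fragments divided by length and depth, so fragments were recovered from their steps, within 0.01 of a whole number. At the listed length, 100% of the values above 0 in the tacrolimus table and 74.6% in the cyclosporine A table came out whole. In the latter 23.5% of detected genes, Cubn and Clcn5 among them, came out whole only at a shorter length (11113 against 11531 bases for Cubn and 2668 against 2948 for Clcn5), which shifts their level by a constant factor in every library of that table. The cyclosporine A table was rescaled with median-of-ratios size factors. The tacrolimus table was already on that scale. Every test was made within a table, since the tables were normalized separately.

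Genes were tested that had the equivalent of 10 fragments in a number of libraries not below the size of the smaller group, and 15 fragments in total. The test was limma 3.58.1 (R 4.3.3) on log2(FPKM + 1) without covariates, with eBayes moderation allowing a trend, and p-values were adjusted by the Benjamini-Hochberg method over all genes tested. A gene was called at an adjusted p under 0.05. The script was tested on simulated data with 200 changed genes. Alternatives were deposited FPKM, scaling to summed FPKM outside the mitochondrial genome, a pseudocount of 0.1, no filter, voom with sample quality weights, a replicate block and leaving out each library.

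The 8 genes and all lists were chosen with earlier results of these data known. Named besides the 8 genes are list genes called in either comparison, in each other list and comparison the gene with the largest log2 fold change, marker genes, and the 4 genes most like Gc and Lrp2 in each table. Results of some list genes are not reported here, and these genes are left out of the list counts and of this rule.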

Additional observations from a re-analysis of the deposited data

Results flagged for a closer look

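In 32 groups of values (8 genes in 4 groups), 3 samples stood apart from the others of their group by Dixon's criterion, which chance meets in about 1 group in 20. The first was Gc in tacrolimus replicate 6, at 63.2 FPKM with the next library at 28.7, a gap of 0.771 of the whole range of the group. That library also had the highest mitochondrial share of the 12 in its table (15.9%). The second was Amn in DMSO/PEG replicate 3, at 159 FPKM with the next library at 132 (a gap of 0.703 of the range). That library also had the lowest Lrp2 of its group, 134 FPKM, and the lowest Cubn, 32.7 FPKM. The third was Dab2 in saline replicate 2, at 18.1 rescaled FPKM with the next library at 14.4 (a gap of 0.852 of the range). That library had the highest mitochondrial share of the saline group (68.6%). The part of the mitochondrial share in these values was not tested.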

How the results depend on the processing

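The cyclosporine A counts depended on the processing. The number of genes called was 83, and 10887 on deposited FPKM, 1 without the filter, 282 with voom and 13 with the replicate block; leaving out 1 library each gave 1 to 141. Among the 8 genes and the list genes reported it was 1 (Gc, lower), and 87 on deposited FPKM, 0 with a pseudocount of 0.1, 0 without the filter, 4 with voom (Gc, Cubn and Rbp4 lower, Ambp higher) and 0 with the replicate block, with 0 to 1 when 1 library was left out. Of the 8 genes, 7 kept a log2 fold change below 0 under all 14 alternatives, and Dab2 was below 0 under 1 of them, the deposited values. For tacrolimus 47 genes were called, 122 with voom (25 higher, 97 lower) and 36 to 49 when 1 library was left out. Among the 8 genes and the list genes reported it was 0 under all alternatives but voom, which called 1, Vdr. The replicate numbers do not pair the samples: deviations of same-numbered samples correlated at −0.15 to 0.22 for cyclosporine A and −0.15 to 0.18 for tacrolimus, where the replicate block called 44 genes. Not every sample correlated best with its own number. Depth limits Clcn5 in the cyclosporine A table, at 0 to 74 fragments per library.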

Other observations

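The gene of the vitamin D receptor, Vdr, was singled out after its values were seen. It was at 37.0 ± 4.61 FPKM (SD, n = 6) with DMSO/PEG and 28.2 ± 2.08 (SD, n = 6) with tacrolimus, with all 6 tacrolimus libraries below all 6 vehicle libraries, where 0.672% of all genes tested did not overlap in that direction. The log2 fold change was −0.37 with a standard error of 0.08, and limma did not call it (adjusted p = 0.0811), while voom with sample quality weights did (−0.36, adjusted p = 0.0467). Cyp27b1, which makes active vitamin D, was at 0.867 ± 0.35 FPKM (SD, n = 6) with DMSO/PEG and 2.04 ± 1.01 (SD, n = 6) with tacrolimus (0.65, limma adjusted p = 0.368), with overlap. In the cyclosporine A table, Vdr was at 4.44 ± 1.18 (SD, n = 4) with saline and 4.61 ± 0.373 (SD, n = 4) with the drug as rescaled FPKM (0.07, limma adjusted p = 0.884). On deposited FPKM it was called lower (−1.02, limma adjusted p = 0.00256), as were 81.2% of all genes. The difference between the drugs was not tested.

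Genes of proximal tubule injury were also counted. With cyclosporine A on rescaled FPKM, 0 of 7 tested were called (limma), against 0.62% of all genes, and 4 had an unadjusted p under 0.05, against 16.2% of all genes. Their median log2 fold change was 0.50, and it was −0.39 on deposited FPKM. Their summed level was 123 to 192 rescaled FPKM with saline and 159 to 341 with cyclosporine A. With tacrolimus 0 of 8 were called (limma, 1 at an unadjusted p under 0.05, against 0.304% and 8.59% of all genes), with a median of 0.05.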
